A study of Mus musculus with 12 samples.

Results

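The data on 10 genes that restrain signalling downstream of the epidermal growth factor receptor (EGFR) are described here in mouse skin, with Adam17 deleted and with it intact. They are the MAP kinase phosphatase genes Dusp4, Dusp5 and Dusp6, the Sprouty genes Spry1, Spry2 and Spry4, their relatives Spred1 and Spred2, the receptor inhibitor gene Errfi1, and Phlda1. The members were chosen by name, and all 10 were found among the 47643 genes of the deposited tables. All 10 passed the filter on low counts in every comparison. Poly(A) RNA of C57BL/6 mice at 10 weeks of age was sequenced in 12 libraries, 3 in each of 4 groups. The groups were whole skin of conditional knockout mice (Skin Adam17 KO), whole skin of wild type mice (Skin WT), epidermis of the knockouts (Epidermis Adam17 KO) and epidermis of wild type mice (Epidermis WT). The knockout mice carried floxed alleles of Adam17, the gene of a membrane protease that sheds EGFR ligands, and Sox9-Cre, a Cre recombinase driven by Sox9. Cells in which Sox9-Cre was never active keep the gene, and which cells these are was not measured here. Neither the Cre nor floxed alleles are given for the wild type mice, and whether replicates are separate animals is not stated. P-values therefore reflect only the variation among these libraries, part of which, and in the wild type groups all of which, may be technical.

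EGFR signals through the GTPase Ras to the kinases Raf, MEK and ERK. Active ERK drives transcription of immediate early genes and also of genes whose products shut the pathway down again, and such genes are called feedback inhibitors. Sprouty and Spred proteins act between the receptor and Raf. DUSP4 and DUSP5 take the phosphates off ERK in the nucleus and DUSP6 in the cytoplasm, while MIG6, the product of Errfi1, binds the kinase domain of EGFR. In the epidermis EGFR signalling holds basal keratinocytes in proliferation and delays differentiation, and ligands shed by ADAM17 are a main input to it.

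Libraries held between 12208522 and 16743144 counts. Levels are given as CPM, counts scaled to library size by the TMM method, and a gene is called where its Benjamini-Hochberg adjusted p in edgeR's quasi-likelihood test, taken over all genes tested, was below 0.05. Adam17 (ENSMUSG00000052593.15, chr12:21323509-21373632, minus strand) stood at 41.6, 52.1 and 52.5 CPM in Skin Adam17 KO, against 72.3, 96.3 and 94.1 CPM in Skin WT, and at 48.4, 58.1 and 47.3 CPM in Epidermis Adam17 KO, against 78.9, 86.4 and 79.4 CPM in Epidermis WT. It was thus 1.68-fold lower in knockout skin (log2 fold change -0.75 ± 0.16 SE, adjusted p = 0.00797) and 1.58-fold lower in knockout epidermis (log2 fold change -0.66 ± 0.12 SE, adjusted p = 0.00213), and remained well above 0 in every knockout library. Which part of the gene is floxed is not given in the sources used here, and the counts cover all of its exons. The skin call was lost with the share of Y-linked reads in the model (adjusted p = 0.0805) and without the 2 knockout libraries that hold such reads (adjusted p = 0.170). Y-linked genes had 1728, 0 and 1034 reads in the 3 Skin Adam17 KO libraries and 1781, 213 and 679 reads in the 3 Epidermis Adam17 KO libraries, against 0 in all 6 wild type libraries. Xist was at 0 in the first knockout library of each tissue, and 3 knockout libraries held reads of both kinds, so sex and genotype cannot be fully told apart in these groups. Values with the share of Y-linked reads in the model are given where they end a call. The epidermis libraries carried less dermal RNA than whole skin. Summed over 10 fibroblast markers they held 127 to 201 CPM in Epidermis Adam17 KO and 43.1 to 52.5 CPM in Epidermis WT, against 806 to 1796 CPM in Skin Adam17 KO and 2215 to 2975 CPM in Skin WT. Those over 10 skeletal muscle markers were 10.6 to 26.8 CPM in Epidermis Adam17 KO and 9.45 to 12.3 CPM in Epidermis WT, against 616 to 3058 CPM in Skin Adam17 KO and 8726 to 70502 CPM in Skin WT. The fibroblast sums were higher in knockout than in wild type epidermis. All 8 basal keratinocyte markers were detected in every group.

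The promoters of 4 members are printed 5′ to 3′ on the gene's own strand, from RefSeq (GRCm38.p6), as the bases before the annotated start, in lower case. Dusp5 is shown because its knockout effect differed between the tissues in sign, Dusp6 as a phosphatase gene for comparison, and Spry1 and Spry2 because both had lower levels in both tissues. The Dusp5 stretch ends at position -37, because the bases after it lie inside the GENCODE gene and are not printed. Capitals mark CArG boxes, the element that serum response factor binds with ERK-activated partners.
Dusp5 (chr19:53528895-53529108, plus strand): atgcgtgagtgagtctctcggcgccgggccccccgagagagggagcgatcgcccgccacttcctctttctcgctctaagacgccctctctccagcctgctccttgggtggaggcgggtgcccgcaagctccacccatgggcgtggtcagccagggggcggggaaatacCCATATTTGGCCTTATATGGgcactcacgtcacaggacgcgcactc
Dusp6 (chr10:99262981-99263230, plus strand): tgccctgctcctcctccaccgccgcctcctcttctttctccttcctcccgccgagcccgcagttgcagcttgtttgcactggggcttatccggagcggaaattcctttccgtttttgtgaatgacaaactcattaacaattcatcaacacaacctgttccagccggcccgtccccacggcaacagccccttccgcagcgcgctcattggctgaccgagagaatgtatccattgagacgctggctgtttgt
Spry1 (chr3:37639697-37639946, plus strand): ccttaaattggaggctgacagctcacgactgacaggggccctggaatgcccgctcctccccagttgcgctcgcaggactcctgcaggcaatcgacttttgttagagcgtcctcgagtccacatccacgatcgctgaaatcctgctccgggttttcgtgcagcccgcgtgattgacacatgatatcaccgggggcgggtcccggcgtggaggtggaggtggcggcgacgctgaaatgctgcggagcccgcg
Spry2 (chr14:105896820-105897069, minus strand): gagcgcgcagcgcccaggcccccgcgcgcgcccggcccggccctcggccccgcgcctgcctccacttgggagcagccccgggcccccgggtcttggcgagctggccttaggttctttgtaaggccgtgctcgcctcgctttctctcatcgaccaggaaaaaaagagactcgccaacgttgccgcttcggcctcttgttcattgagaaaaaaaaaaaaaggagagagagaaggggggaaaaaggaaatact

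Of the 10 members 7 had promoter windows in the RefSeq table, 8 windows in all, each searched on both strands over all 250 bases before the RefSeq start, printed or not, for the CArG box, the cyclic AMP response element (TGACGTCA), the AP-1 site (TGANTCA) and an ETS site (CCGGAAG). These motifs do not overlap one another in the windows searched. Dusp5 held 2 CArG boxes side by side, CCATATTTGG at positions -82 to -73 and CCTTATATGG at positions -72 to -63, counted from the start. A CArG box lay in 1.47% of 32851 mouse windows, and 2 or more lay in 6 of these windows, or 0.0183%. Errfi1 had a cyclic AMP response element at positions -51 to -44 of its second start, a motif found in 1.55% of windows. The AP-1 letters, present in 6.75% of windows, and the ETS letters, present in 6.91%, were in none of the members' windows, nor did Dusp6, Spry1, Spry2, Spred1 or Spred2 hold any of the 4 motifs. Among the 16 genes with a window in a list of genes of transcription and early response linked to ERK, 2 held a CArG box, Egr2 with 1 and Srf with 2. Boxes farther than 250 bases before the start were not searched for any gene, and other genes of that list had no window. These matches describe letters only and were not tested for function.

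The feedback genes did not move as one in the knockout. In skin, 3 of the 10 were higher in the knockout (Phlda1, Dusp4 and Dusp5) and 3 were lower (Spry1, Spry2 and Errfi1). These 6 calls compare with 45.5% of all 14906 genes tested, 22.2% higher and 23.3% lower. In epidermis, 2 were higher (Phlda1 and Dusp4) and 5 lower (Spry1, Spry2, Spred2, Errfi1 and Dusp5), 7 calls where 51.5% of 13632 genes were called, 26.2% higher and 25.3% lower. The shares of members called are close enough to these backgrounds that, with 10 genes, the number of calls says nothing particular about them, and their directions and sizes are described gene by gene. The median log2 fold change of the 10 was 0.19 in skin and -0.30 in epidermis, against 0.00 over all genes in both. In both tissues the called members are those whose knockout and wild type libraries did not overlap, 6 of 10 in skin and 7 of 10 in epidermis, beside 58% and 62% of all genes. RNA of bulk tissue cannot tell fewer cells of a type from less RNA per cell, which holds for every difference below.

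**Figure D1:**
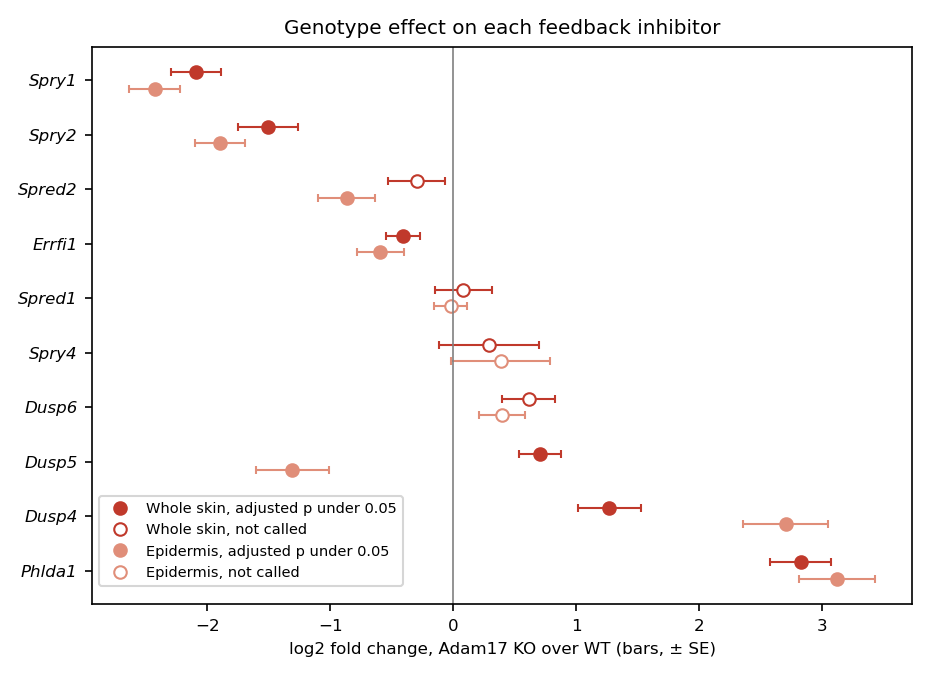
Log2 fold change of each feedback gene, knockout over wild type, with SE bars, in skin and in epidermis (3 libraries a group). Spry1 at -2.09 and -2.42 and Spry2 at -1.50 and -1.90 lie far below 0 in skin and epidermis, Phlda1 at 2.83 and 3.12 far above, and Dusp5 changes side, at 0.71 and -1.31.

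Of the Sprouty genes, Spry1 and Spry2 fell in both tissues and Spry4, with few reads, was not called. Sprouty proteins are ERK-induced inhibitors that keep receptor tyrosine kinases from activating Ras and Raf. Spry1 (ENSMUSG00000037211.12, chr3:37639947-37644598, plus strand) had 17.8, 11.3 and 13.4 CPM in Skin Adam17 KO, against 54.3, 73.4 and 65.1 CPM in Skin WT. In epidermis it had 14.4, 21.0 and 17.7 CPM in the knockout, against 70.6, 110.3 and 108 CPM in wild type. Every knockout library lay below every wild type library of its tissue, the nearest pair being several-fold apart. The gene was 4.26-fold lower in knockout skin (log2 fold change -2.09 ± 0.20 SE, adjusted p = 0.000490) and 5.37-fold lower in knockout epidermis (log2 fold change -2.42 ± 0.21 SE, adjusted p = 5.72e-05). Spry2 (ENSMUSG00000022114.4, chr14:105891947-105896819, minus strand) followed with 8.87, 5.93 and 9.45 CPM in Skin Adam17 KO, against 21.8, 31.1 and 20.5 CPM in Skin WT, and with 6.09, 9.48 and 8.12 CPM in Epidermis Adam17 KO, against 24.6, 29.6 and 35.2 CPM in Epidermis WT. Again no libraries overlapped. The gene was 2.84-fold lower in knockout skin (log2 fold change -1.50 ± 0.24 SE, adjusted p = 0.00310) and 3.73-fold lower in knockout epidermis (log2 fold change -1.90 ± 0.20 SE, adjusted p = 0.000167). Spry4 (ENSMUSG00000024427.6, chr18:38586247-38601415, minus strand) rested on 33, 29 and 18 reads in Skin Adam17 KO and 17, 23 and 40 reads in Skin WT, and on 10, 11 and 14 reads in Epidermis Adam17 KO and 6, 14 and 6 reads in Epidermis WT. Its knockout and wild type libraries overlapped in both tissues (log2 fold change 0.29 ± 0.41 SE, adjusted p = 0.589 in skin; log2 fold change 0.39 ± 0.40 SE, adjusted p = 0.443 in epidermis), and a difference was not detectable at this depth. The calls on Spry1 and Spry2 held in both tissues under every alternative run, the Y-linked covariate and the loss of any 1 library included.

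**Figure D2:**
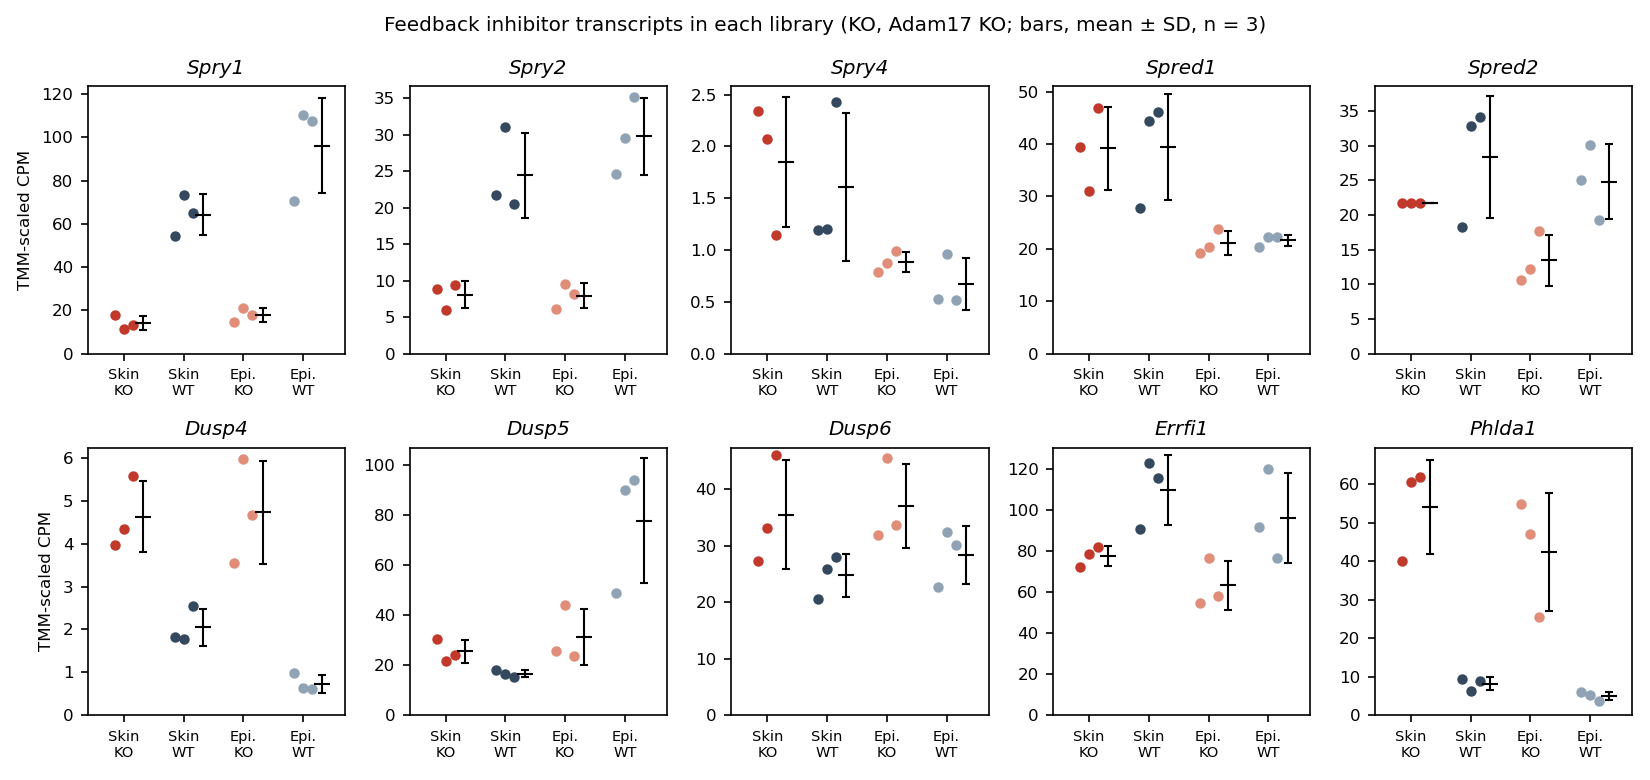
Level of each of the 10 genes in every library, in TMM-scaled CPM, by group, with points for the 3 libraries of a group and bars for mean ± SD. Spry1 averaged 14.2 CPM in Skin Adam17 KO and 64.3 CPM in Skin WT, and 17.7 CPM in Epidermis Adam17 KO and 96.2 CPM in Epidermis WT, while the 4 groups of Spred1 and Dusp6 differ far less.

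Of the Spred genes, whose products recruit the Ras inhibitor neurofibromin to the membrane, Spred1 was not called in either tissue and Spred2 fell in knockout epidermis. Spred1 (ENSMUSG00000027351.14, chr2:117121374-117182279, plus strand) had 39.5, 31.1 and 46.9 CPM in Skin Adam17 KO and 27.8, 44.5 and 46.0 CPM in Skin WT. It had 19.2, 20.3 and 23.7 CPM in Epidermis Adam17 KO and 20.4, 22.2 and 22.2 CPM in Epidermis WT. The genotypes overlapped in both tissues (log2 fold change 0.08 ± 0.23 SE, adjusted p = 0.787 in skin; log2 fold change -0.02 ± 0.13 SE, adjusted p = 0.917 in epidermis), and the sign of so small a value turned with the settings. Spred2 (ENSMUSG00000045671.17, chr11:19924375-20024026, plus strand) was lower in knockout epidermis, at 10.6, 12.2 and 17.7 CPM, against 25.1, 30.1 and 19.3 CPM in Epidermis WT. All 3 knockout libraries lay below the lowest wild type one, a 1.82-fold lower level (log2 fold change -0.87 ± 0.23 SE, adjusted p = 0.0130), but with the share of Y-linked reads in the model it was no longer called (a log2 value of -0.64, adjusted p = 0.181). In skin the levels were 21.8, 21.7 and 21.7 CPM in the knockout and 18.3, 32.9 and 34.2 CPM in wild type, overlapping and not called (log2 fold change -0.29 ± 0.23 SE, adjusted p = 0.334). The lowest wild type library, Skin WT 1, decides that: without it the adjusted p was 0.00472 at a log2 fold change of -0.54.

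The 3 ERK phosphatase genes gave 3 patterns. Dusp4 and Dusp5 encode nuclear enzymes and Dusp6 the cytoplasmic one. Dusp4 rose in both tissues, Dusp5 was higher in knockout skin and lower in knockout epidermis, and Dusp6 was above wild type in both tissues without passing the threshold. Dusp4 (ENSMUSG00000031530.6, chr8:34807297-34819894, plus strand) had 3.97, 4.36 and 5.58 CPM in Skin Adam17 KO, against 1.82, 1.78 and 2.55 CPM in Skin WT. In epidermis it had 3.56, 5.98 and 4.66 CPM in the knockout, against 0.971, 0.620 and 0.604 CPM in wild type, the last resting on only 11, 9 and 7 reads. The genotypes did not overlap in either tissue. The gene was 2.41-fold higher in knockout skin (log2 fold change 1.27 ± 0.25 SE, adjusted p = 0.00688) and 6.51-fold higher in knockout epidermis (log2 fold change 2.70 ± 0.35 SE, adjusted p = 0.000383). The skin call was lost without the 2 knockout libraries that hold Y-linked reads, which leaves 1 knockout library (log2 fold change 1.20, adjusted p = 0.0917). Dusp5 (ENSMUSG00000034765.6, chr19:53529109-53542431, plus strand) had 30.5, 21.6 and 24.0 CPM in Skin Adam17 KO, against 17.8, 16.5 and 15.3 CPM in Skin WT, with no overlap and a modest rise (1.63-fold higher, log2 fold change 0.71 ± 0.17 SE, adjusted p = 0.0131). In epidermis the order turned round: 25.6, 43.8 and 23.5 CPM in the knockout stood against 48.8, 90.0 and 93.8 CPM in wild type, and all 3 knockout libraries lay below the lowest wild type one (2.48-fold lower, log2 fold change -1.31 ± 0.30 SE, adjusted p = 0.00617). With the share of Y-linked reads in the model neither call held (log2 fold change 0.45, adjusted p = 0.115 in skin, and a log2 fold change of -0.93 in epidermis). The skin call was also lost in 1 fit of all 12 libraries (adjusted p = 0.0853) and without the 2 knockout libraries with Y-linked reads (adjusted p = 0.193). Dusp6 (ENSMUSG00000019960.7, chr10:99263231-99267489, plus strand) had 27.2, 33.1 and 46.1 CPM in Skin Adam17 KO, against 20.5, 25.8 and 27.9 CPM in Skin WT, and 31.9, 45.5 and 33.6 CPM in Epidermis Adam17 KO, against 22.6, 32.4 and 30.1 CPM in Epidermis WT. The libraries overlapped in both tissues, by a single knockout library in skin (log2 fold change 0.61 ± 0.22 SE, adjusted p = 0.0553) and likewise in epidermis (log2 fold change 0.40 ± 0.18 SE, adjusted p = 0.102). In skin, where libraries of one number deviated together, the fit with the replicate number as a block called it (log2 fold change 0.59, adjusted p = 0.0224). So did DESeq2 (log2 fold change 0.62, adjusted p = 0.0350) and the fit without Skin Adam17 KO 1 (adjusted p = 0.0285).

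Errfi1 (ENSMUSG00000028967.10, chr4:150853919-150868892, plus strand), the gene of MIG6, a direct inhibitor of the EGFR kinase, was lower in both tissues by less. It had 72.1, 78.7 and 81.8 CPM in Skin Adam17 KO, against 90.6, 123 and 116 CPM in Skin WT. In epidermis it had 54.7, 76.7 and 58.3 CPM in the knockout, against 91.7, 119.8 and 76.8 CPM in wild type, where the highest knockout and the lowest wild type library nearly touch. The gene was 1.33-fold lower in knockout skin (log2 fold change -0.41 ± 0.14 SE, adjusted p = 0.0489) and 1.51-fold lower in knockout epidermis (log2 fold change -0.59 ± 0.19 SE, adjusted p = 0.0302). Both calls sit at the threshold. In skin the replicate block ended it (log2 fold change -0.40, adjusted p = 0.0559), as did leaving out Skin WT 2 or 3 or any of the 3 knockout libraries, with adjusted p between 0.107 and 0.157. In epidermis it was lost without Epidermis WT 1 or 2 or Epidermis Adam17 KO 1 or 3, with adjusted p between 0.0552 and 0.101. With the share of Y-linked reads in the model the adjusted p was 0.253 in skin and 0.336 in epidermis. Its log2 fold change stayed below 0 in all of these alternatives.

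Phlda1 (ENSMUSG00000020205.8, chr10:111506286-111508645, plus strand) had the largest log2 fold change of the 10 members in both tissues, upwards. It encodes a pleckstrin homology-like protein that is induced by ERK. Its levels were 39.9, 60.5 and 61.8 CPM in Skin Adam17 KO, against 9.31, 6.16 and 8.93 CPM in Skin WT. In epidermis they were 54.9, 47.0 and 25.4 CPM in the knockout, against 5.92, 5.10 and 3.71 CPM in wild type. The lowest knockout library of either tissue lay several-fold above the highest wild type library of that tissue. Phlda1 was 7.10-fold higher in knockout skin (log2 fold change 2.83 ± 0.25 SE, adjusted p = 0.000341) and 8.69-fold higher in knockout epidermis (log2 fold change 3.12 ± 0.31 SE, adjusted p = 0.000113), and every alternative run kept both calls.

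Whether a member responded differently in the tissues was tested as the difference of the genotype effects, epidermis minus skin, in 1 fit of all 12 libraries. Of the 10 genes 2 were called, Dusp4 and Dusp5, where 16.5% of 15394 genes were called, 10.1% above 0 and 6.36% below. Dusp5 differed by -1.94 ± 0.39 SE on the log2 scale (adjusted p = 0.00850), since it was higher in the knockout in skin and lower in epidermis. In each of the 20 alternatives run the call held, with differences between -2.28 and -1.79 and a largest adjusted p of 0.0295. Dusp4 differed by 1.51 ± 0.41 SE (adjusted p = 0.0306), the rise being larger in epidermis. This call is the weaker one, lost in 11 of 20 alternatives with adjusted p between 0.0538 and 0.0840. The replicate block ended it (adjusted p = 0.0556). Leaving out Skin WT 3, Skin Adam17 KO 1 or 2, Epidermis WT 2 or 3 or Epidermis Adam17 KO 2 or 3 each ended it, with adjusted p between 0.0602 and 0.0796. For the other 8 members the difference was not called, and the estimates ran from -0.49 for Spred2 to 0.37 for Phlda1, which does not show that they respond alike.

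The wild type tissues themselves placed Dusp4 and Dusp5 at opposite ends. Dusp5 was 4.60-fold higher in Epidermis WT than in Skin WT (log2 fold change 2.20 ± 0.26 SE, adjusted p = 0.000544), at 77.5 ± 24.9 CPM in epidermis and 16.6 ± 1.27 CPM in skin (SD, n = 3 each). Dusp4 was 2.84-fold lower there (log2 fold change -1.51 ± 0.34 SE, adjusted p = 0.00936), at 0.732 ± 0.207 CPM in epidermis and 2.05 ± 0.435 CPM in skin (SD, n = 3 each). Spred1 was 1.85-fold lower (log2 fold change -0.89 ± 0.20 SE, adjusted p = 0.00878). These 3 of 10 members were called beside 42.9% of 14596 genes, 17.6% higher in epidermis and 25.3% lower. This comparison shares its wild type libraries with both genotype comparisons. The level of Dusp5 in both knockout groups, 31.0 CPM in epidermis and 25.4 CPM in skin, lay between Epidermis WT, the highest, and Skin WT, the lowest, and the libraries of the 2 knockout groups overlapped. For Dusp4 the 2 knockout groups again overlapped, at 4.73 CPM in epidermis and 4.64 CPM in skin, and lay above Skin WT and, lowest, Epidermis WT. For Spry1, Spry2 and Errfi1 the knockout groups of the tissues overlapped each other, and so did the wild type groups. Phlda1 had overlapping knockout groups, while its wild type libraries lay lower in epidermis than in skin without overlap, a difference that was not called (log2 fold change -0.76 ± 0.27 SE, adjusted p = 0.0529). In all, the libraries of the wild type tissues did not overlap for 5 of the 10 members, beside 56.5% of all genes.

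Levels of different genes can be compared only per transcript length, for which the deposited TPM, transcript abundances scaled within a library, served. The order of the members changed with the genotype. In Skin Adam17 KO Phlda1 at 42.6 ± 11.1 TPM and Errfi1 at 36.9 ± 2.45 TPM were level within their spread, Errfi1 being the higher in 1 of the 3 libraries, followed by Dusp6 at 18.3 ± 5.43 TPM, whereas in Skin WT Errfi1 led at 55.1 ± 15.4 TPM, followed by Spry1 at 39.7 ± 11.1 TPM and Spry2 at 18.1 ± 5.79 TPM (SD, n = 3 each). In Epidermis Adam17 KO Phlda1 at 23.5 ± 5.84 TPM and Errfi1 at 22.7 ± 6.35 TPM were likewise level, and in Epidermis WT Spry1 at 39.4 ± 9.95 TPM, Errfi1 at 35.1 ± 9.90 TPM and Dusp5 at 31.8 ± 10.3 TPM stood together at the top. Spry1 dropped to 8.25 TPM in Skin Adam17 KO and 7.50 TPM in Epidermis Adam17 KO, below the levels of Dusp6 and Dusp5 there. Among the phosphatase genes Dusp4 was the lowest in all 4 groups, at 2.44 TPM in Skin Adam17 KO and 1.13 TPM in Skin WT, and at 1.81 TPM in Epidermis Adam17 KO and 0.270 TPM in Epidermis WT. Spry4 had group means between 0.147 and 0.560 TPM.

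**Figure D3:**
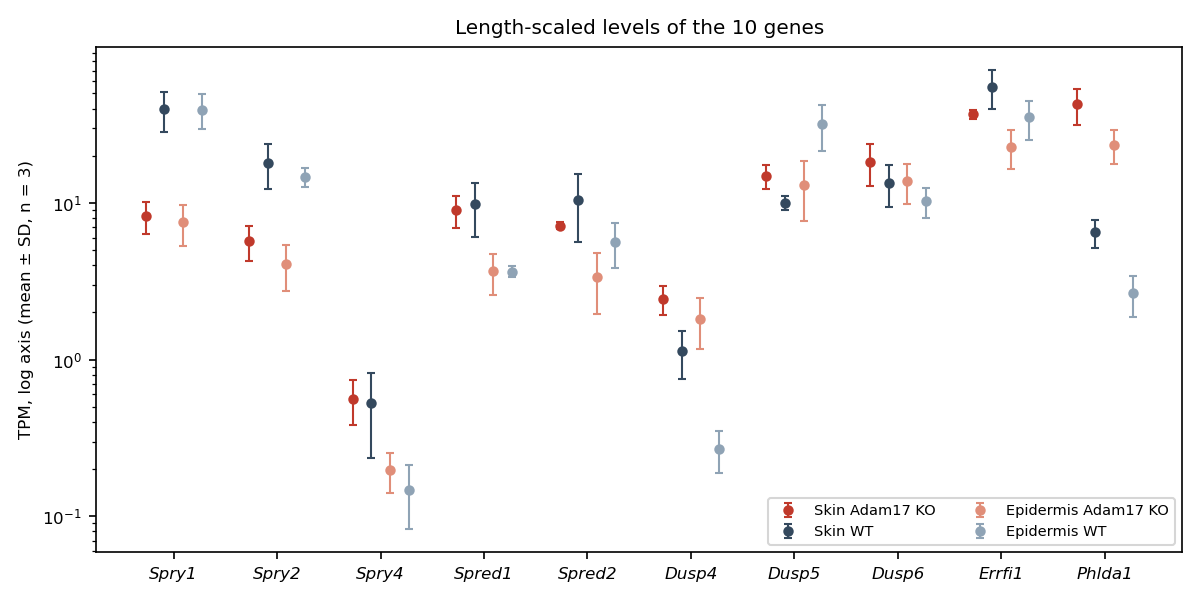
Mean TPM (log axis) of the 10 genes with SD bars in the 4 groups (3 libraries each). Phlda1 stands at 42.6 TPM in Skin Adam17 KO and 6.49 TPM in Skin WT, and Spry1 at 8.25 and 39.7 TPM in the same groups.

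Listed genes of transcription and early response linked to ERK were mostly higher in knockout skin and mostly lower in knockout epidermis. Whether ERK drove them or the feedback genes in these tissues was not tested. Of 23 tested genes of transcription and early response, 13 were higher and 0 lower in knockout skin (median log2 fold change 0.83), whereas 4 were higher and 15 lower in knockout epidermis (median -1.10). Of all genes tested 22.2% were higher in skin and 25.3% lower in epidermis, with medians of 0.00. The difference between the tissues was called for 2 above and 13 below 0, beside 10.1% and 6.36% of all genes. In wild type tissue 13 were higher and 2 lower in epidermis than in skin, beside 17.6% and 25.3% of all genes. Junb, an AP-1 subunit gene, was 2.55-fold higher in knockout skin and 3.66-fold lower in knockout epidermis (log2 fold change 1.35 ± 0.13 SE, adjusted p = 0.000425; log2 fold change -1.87 ± 0.18 SE, adjusted p = 9.04e-05), a difference of -3.15 ± 0.21 SE (adjusted p = 0.000116). Ier2, an immediate early response gene, was 6.11-fold lower in knockout epidermis (log2 fold change -2.61 ± 0.23 SE, adjusted p = 6.64e-05). In knockout skin Ier2 was higher (log2 fold change 0.62, adjusted p = 0.0129), a call lost with the Y-linked covariate (adjusted p = 0.0559) and without Skin Adam17 KO 2 (adjusted p = 0.0516). Its difference between the tissues was -3.16 (adjusted p = 0.000226). The skin values of Ier3, an ERK-induced survival gene, and of Plaur, the urokinase receptor gene, were 1.83 and 2.28, and Elk3, an ETS factor gene, was 7.26-fold higher in knockout epidermis (log2 fold change 2.86 ± 0.30 SE, adjusted p = 0.000148). Set beside Junb, Dusp5 had 0.71, -1.31 and 2.20 in the skin, epidermis and wild type tissue comparisons, where Junb had 1.35, -1.87 and 3.94. Dusp4 had 1.27, 2.70 and -1.51, where Elk3 had 1.44, 2.86 and -2.31. These 3 comparisons share wild type libraries, so their signs are not independent, and the pairs of genes were set side by side after their values were seen. Both Junb and Ier2 were high in the wild type epidermis itself, with log2 differences of 3.94 and 4.23 to Skin WT. How the epidermis was separated from the dermis is not given in the sources used here.

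**Figure D4:**
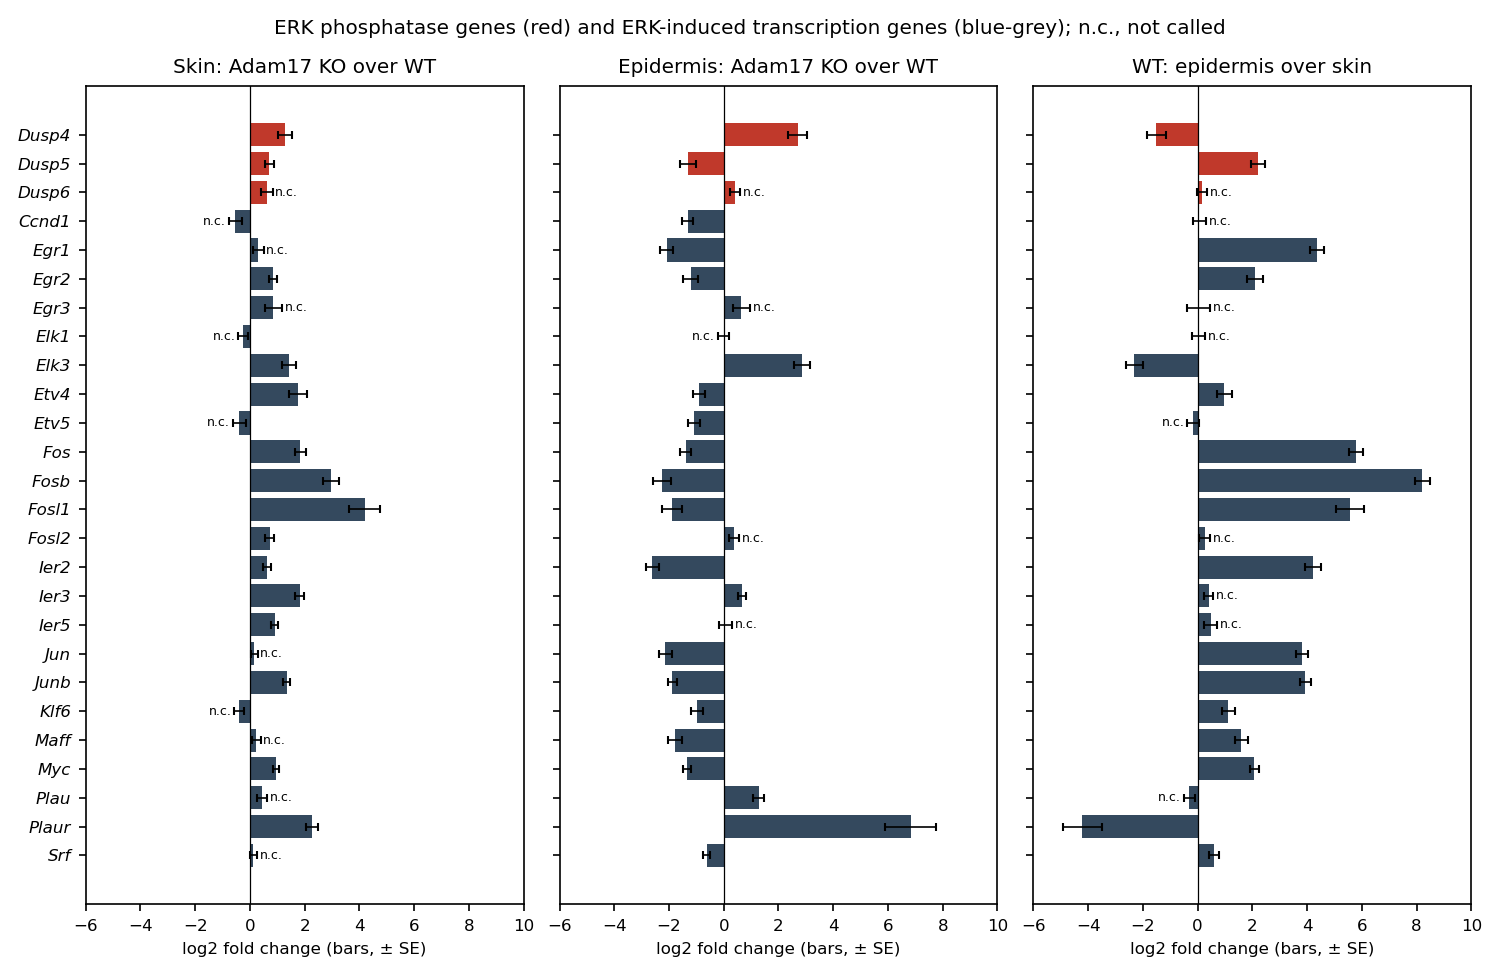
Log2 fold changes with SE bars of the 3 ERK phosphatase genes and of the 23 tested genes of transcription and early response linked to ERK, for knockout over wild type in skin, for knockout over wild type in epidermis and for wild type epidermis over wild type skin (3 libraries a group, n.c. for not called). The figure's title names the 23 ERK-induced, which was not tested here. Junb at 1.35, -1.87 and 3.94 and Dusp5 at 0.71, -1.31 and 2.20, each in that order of panels, have the same signs.

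The other genes of these families and of the pathway around them were counted from lists. Of the remaining MAP kinase phosphatase, Sprouty and Spred genes, 5 rose and 2 fell of 9 tested in skin and 2 rose and 2 fell of 8 tested in epidermis. Dusp14 (1.61 on the log2 scale) and Dusp7 (1.02), a cytoplasmic ERK phosphatase gene, rose in skin and Dusp8 (-0.86), which encodes a phosphatase of JNK and p38, fell. In epidermis Dusp10 (1.57), another JNK and p38 phosphatase gene, rose, while Dusp1 (-0.93), the immediate early member of the family, and Dusp8 (-0.96) fell. The call on Dusp8 in epidermis was lost with the Y-linked covariate (adjusted p = 0.0547). Dusp1, looked at in the other comparisons after its values were seen, had 0.66 in skin (adjusted p = 0.0315) and a called difference between the tissues of -1.52 ± 0.27 SE (adjusted p = 0.00508), though its skin call was lost without Skin WT 3 or Skin Adam17 KO 2 or 3 (adjusted p between 0.0908 and 0.103), with the Y-linked covariate (0.0628) and without the 2 knockout libraries with Y-linked reads (0.158). Upstream, ligand genes of EGFR and of other ErbB receptors were counted together, Nrg1 and Nrg4 included. Of these, 7 rose and 2 fell of 9 tested in skin and 3 rose and 1 fell of 9 tested in epidermis. Epgn, the epigen gene, rose in both (3.43 and 2.09), and Btc, the betacellulin gene, fell in both (-3.91 and -3.64). Hbegf, the gene of an ADAM17-shed ligand, rose in skin (4.29), while its genotypes overlapped in epidermis. Nrg1, which encodes an ErbB3 ligand, rose in epidermis (2.02) and also in skin. There it had 9.65, 15.1 and 13.8 CPM in Skin Adam17 KO, against 0.280, 0.575 and 0.182 CPM in Skin WT, the last resting on 4, 11 and 3 reads. Of receptors and adaptors, 3 rose and 1 fell of 12 tested in skin and 8 rose and 1 fell of 12 tested in epidermis. Sos1, the gene of a Ras activator, was among the rising ones in epidermis (1.22) and in skin (0.57, adjusted p = 0.0450). Its skin call was lost in 8 of 15 alternatives. Of the Ras-ERK core, 3 rose and 3 fell of 15 tested in skin and 5 rose and 4 fell of 15 tested in epidermis. Map2k1, the MEK1 gene, was higher in both (1.02 and 1.12). Ksr1, the gene of a scaffold of Raf and MEK, was higher in epidermis (1.65). The skin call on Map2k1 was lost without the 2 knockout libraries with Y-linked reads, which leaves 1 knockout library (0.95). Read against the shares of all genes called, 22.2% higher and 23.3% lower in skin and 26.2% higher and 25.3% lower in epidermis, lists of this size allow no statement beyond their counts, and several counts are at the background. These are mRNA levels. Phosphorylated ERK was not measured here.

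Markers of several cell types moved with the genotype beside the feedback genes. Of all genes tested 22.2% were higher and 23.3% lower in knockout skin, and 26.2% were higher and 25.3% lower in knockout epidermis. Counts near these shares say nothing particular about a list. In skin, 0 rose and 10 fell of 10 tested of the skeletal muscle markers, with sums of 616 to 3058 CPM in Skin Adam17 KO and 8726 to 70502 CPM in Skin WT, and 0 rose and 8 fell of 9 tested of the adipocyte markers (252 to 545 CPM in the knockout and 2554 to 3189.6 CPM in wild type). Of the fibroblast markers 0 rose and 6 fell of 10 tested (806 to 1796 CPM in the knockout and 2215 to 2975 CPM in wild type). Of the endothelial markers 0 rose and 9 fell of 9 tested (43.2 to 55.8 CPM in the knockout and 139 to 156 CPM in wild type), and of the Schwann cell markers 0 rose and 6 fell of 7 tested. Proliferation markers moved the other way in skin, where 8 rose and 0 fell of 8 tested (466 to 704 CPM in the knockout and 202 to 218 CPM in wild type). The basal keratinocyte markers summed to 16740.2 to 21420.1 CPM in Skin Adam17 KO and 12576 to 14128 CPM in Skin WT, where 1 rose and 3 fell of 8 tested. In epidermis the basal keratinocyte markers summed to 11506 to 16318 CPM in Epidermis Adam17 KO and 24143 to 26878 CPM in Epidermis WT, and 0 rose and 6 fell of 8 tested. Fibroblast markers rose there (8 of 8 tested), as did 5 of 7 macrophage and dendritic markers, and of the proliferation markers 4 rose and 1 fell of 8 tested. In skin 1 of the macrophage and dendritic markers rose and 2 fell of 8 tested. Of the T cell markers 5 rose and 1 fell of 8 tested in skin, and 5 rose and 1 fell of 8 tested in epidermis. Their sums overlapped between the genotypes in both tissues. They were 71.3 to 112 CPM in Skin Adam17 KO and 61.5 to 82.6 CPM in Skin WT. In epidermis they were 105 to 170 CPM in the knockout and 113 to 145 CPM in wild type. Stress keratinocyte markers rose in both tissues, at 20904 to 29744 CPM in Skin Adam17 KO and 1398 to 1807 CPM in Skin WT, and at 9034 to 23572 CPM in Epidermis Adam17 KO and 1625 to 2810.2 CPM in Epidermis WT. Neutrophil markers summed to 1964 to 2619.5 CPM in Skin Adam17 KO and 28.2 to 34.1 CPM in Skin WT, and to 2355 to 5128 CPM in Epidermis Adam17 KO and 13.7 to 19.2 CPM in Epidermis WT, with 4 of the 8 at 0 reads in the last group. The part that the other cell types have in the members' changes was not tested.

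As a description, the genes whose levels followed each member most closely over the 12 libraries were listed by Pearson correlation of log2(CPM + 1). The points share 4 groups and the library scaling, so r mostly reflects the group means. Phlda1 was closest to Cd24a (r = 0.993) and Ppard (r = 0.991), Spry1 to Cry2 (r = 0.994) and Trim12a (r = 0.991) and Spry2 to Tnfaip8 (r = 0.984) and Homer2 (r = 0.983). The nearest to Dusp5 were Ppp1r15a (r = 0.953) and Hnrnpdl (r = 0.947), and the nearest to Dusp4 Il7r (r = 0.973) and Trim25 (r = 0.970). Errfi1 had Tlr3 (r = 0.951) and Ocln (r = 0.942) and Spred2 Zfp574 (r = 0.971) and Pml (r = 0.956). Spred1 lay nearest to Ugdh (r = 0.951) and Enc1 (r = 0.945), Spry4 to Slc37a3 (r = 0.899) and Zbtb38 (r = 0.894) and Dusp6, with the lowest values of the 10, to Sec24a (r = 0.874) and Cry1 (r = 0.872).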

How the data were processed

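Poly(A) libraries were made with a stranded mRNA kit from whole skin and epidermis, per the labels' protocols. Per the submitters' processing notes bcl2fastq 2.17, STAR 2.5.1, RSEM and mm10 were used. The gene models and strandedness option behind the counts are not stated there. The authors deposited an expected count for each gene and library, estimated by RSEM, which divides ambiguous reads among genes by probability, and TPM values, per the file headers. The TPM are scaled within a library and not by TMM. Expected counts were rounded to whole numbers.

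The 47643 gene IDs were matched to GENCODE mouse release M21 for symbols and positions (GRCm38, the assembly called mm10), 47224 of them without their version number. Antisense or other genes on the opposite strand overlap Dusp5, Spry1, Spry4, Errfi1 and Phlda1. They held 53.5 counts over all libraries beside Spry1 and 0 beside the others.

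Each tissue was fitted alone, knockout against wild type, with edgeR 4.0.16 in R 4.3.3 (TMM, default expression filter, quasi-likelihood test, Benjamini-Hochberg adjustment over all genes tested). Wild type epidermis was set against wild type skin likewise, and 1 fit of all 12 libraries tested whether the genotype effect differed between tissues. SE are absolute log2 fold changes over the root of the F statistic. CPM shown are TMM-scaled over all 12 libraries, and 3 counts correspond to between 0.179 and 0.246 CPM unscaled. The fits were also run on simulated data, with far fewer genes changed than were called here. That run therefore does not check their error rates in these data.

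The members, the gene lists, the alternatives and the rule for named genes were chosen with earlier results of these data known. The rule takes all members, Adam17, per tissue and list up to 3 genes lowest in adjusted p, and for each member the 2 genes with the highest correlation among those with a mean of at least 5 CPM and an established symbol. Alternatives were DESeq2 1.42.0, limma-voom (limma 3.58.1), RLE scaling, TMM without muscle, adipocyte and stress keratinocyte genes, no filter, a joint fit of the libraries, a 2-fold minimum, the share of Y-linked reads as a covariate, a replicate block within each tissue or, for the difference, across tissues, and leaving out each library. Leaving out the 2 knockout skin libraries with Y-linked reads was chosen after seeing the data.

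Groups share replicate numbers in the titles. In skin the deviations of same-numbered libraries from their group means correlated across genes (r = 0.321, 0.304 and 0.256). The alternative with a replicate block treats them as pairs, a pairing that comes from the data. The main skin fit was not paired. The pair of Skin Adam17 KO 3 with Skin WT 2 reached 0.199. Replicates were further apart than counting noise allows (chi-square over degrees of freedom from 13.3 upwards), so none was counted as a repeat.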

Additional observations from a re-analysis of the deposited data

Results flagged for a closer look

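Dusp4 and Dusp5 are singled out because their knockout effects differed between the tissues in a test of that difference. For Dusp4 the log2 fold change in epidermis minus that in skin was 1.51 ± 0.41 SE, with a rise in both tissues, 2.70 in epidermis and 1.27 in skin. That call was lost in 11 of 20 alternatives, the replicate block among them (adjusted p = 0.0556). For Dusp5 it was -1.94 ± 0.39 SE, with -1.31 in epidermis and 0.71 in skin, and each of the 3 knockout libraries lay below all wild type libraries in epidermis and above them all in skin.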

How the results depend on the processing

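The calls on Spry1, Spry2 and Phlda1 in both tissues and on Dusp5 in the difference between tissues held in every alternative run. Of the 17 values that turned sign, 12 belong to Spred1, whose values are near 0 in these comparisons, and none was called. Spred1 in skin turned to -0.0101 in 1 fit of all 12 libraries, -0.11 with the Y-linked covariate and -0.23 without the 2 knockout libraries with Y-linked reads, and ran from -0.12 to 0.21 with 1 library left out. In epidermis it was 0.0794 with the Y-linked covariate and ran from -0.11 to 0.0392 with 1 library left out. Leaving out 1 library also turned uncalled differences between tissues, which then ran from -0.17 to 0.17 for Spred1, -0.27 to 0.0824 for Errfi1, -0.24 to 0.55 for Spry4 and -0.32 to 0.0926 for Dusp6. The cause of these turns was not tested.

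A minimum of 2-fold left 3905 genes called in skin, 3261 in epidermis and 3654 between wild type tissues. With the share of Y-linked reads as a covariate 4540 genes and 4 members (Spry1, Spry2, Dusp4 and Phlda1) were called in epidermis. Without the 2 knockout skin libraries that hold Y-linked reads 2658 genes and 3 members (Spry1, Spry2 and Phlda1) were called in skin, with 1 knockout library assumed to vary like the others. For the difference between tissues 1 member, Dusp5, was called with limma-voom, without the filter, with the replicate block and with a block of same-numbered libraries of a genotype across the tissues. That block across tissues called 1271 genes, 71.7% of them above 0 against 61.4% without it. With 1 library left out, 1397 to 3940 genes and 1 to 2 members were called there, the highest count of genes coming without Skin WT 1. Leaving out 1 library gave 4944 to 7770 genes and 5 to 7 members in skin, 5856 to 6573 genes and 6 to 7 members in epidermis, and 4198 to 7830 genes and 3 to 4 members between wild type tissues. In 1 fit of all 12 libraries 5 members were called between wild type tissues.

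No main fit paired libraries by replicate number, and outside skin the numbers gave less ground to do so. Nothing in the labels ties a skin to an epidermis library, and same-numbered ones correlated between -0.404 and 0.110. Correlations ran from -0.108 to 0.191 between genotypes in epidermis, and the block changed 1 member call there, that of Dusp6 (log2 fold change 0.40, adjusted p = 0.0399). In skin it changed no call on a member besides those on Errfi1 and Dusp6. Depth limits Spry4, with 6 to 40 reads a library, and Dusp4 in wild type epidermis. Groups of 3 leave modest differences, such as those of Errfi1 and Dusp6, near the threshold.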

Other observations

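Other brakes on EGFR and Ras were, over both directions, called about as often as genes at large. In knockout skin 7 were higher and 1 lower of 17 tested, beside 22.2% and 23.3% of all genes, and in knockout epidermis 7 were higher and 1 lower of 17 tested, beside 26.2% and 25.3%. Ptpn1, the gene of a phosphatase of receptor tyrosine kinases, rose in both (log2 fold changes 0.82 in skin and 0.68 in epidermis), as did Socs5, whose product promotes degradation of EGFR (0.73 in skin and 0.87 in epidermis). Rasa3, a Ras GTPase-activating protein gene, fell in skin (-0.97). Of these, the skin calls on Ptpn1, Socs5 and Rasa3 were lost without the 2 knockout libraries with Y-linked reads (adjusted p = 0.0774, 0.110 and 0.0775).

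Genes of the JNK, p38 and ERK5 branches were near these backgrounds too. In knockout skin 2 were higher and 4 lower of 16 tested, and in knockout epidermis 3 were higher and 6 lower of 16 tested. Map2k6, which encodes an activator of p38, fell in both (-1.01 in skin, adjusted p = 0.00512, and -1.08 in epidermis, adjusted p = 0.00629), though its skin call was lost with the Y-linked covariate (adjusted p = 0.0506) and without those 2 libraries (adjusted p = 0.137). Mapk12, the gene of a p38 kinase that is abundant in skeletal muscle, had -2.70 in skin, where the muscle markers also fell, and that part in its value was not tested. Its skin call was also lost without those 2 libraries (-3.05). All adjusted p are from edgeR's quasi-likelihood test.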
